A study of Mus musculus with 8 samples.

Results

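The mRNAs described here encode 8 proteins of the outer dense fibres and the fibrous sheath of the sperm tail: Odf1, Odf2, Odf3, Odf4, Akap3, Akap4, Ropn1 and Ropn1l. They were picked by symbol from the 19276 entries of the deposited tables of gene reads, and all 8 had reads in each of the 8 libraries. The libraries were made from testes of C57BL/6 mice 6 weeks old. There were 4 groups of 2 libraries: testis RNA of mice homozygous at RNF17, testis RNA of heterozygous mice, RNA recovered with an RNF17 antibody (RNF17 IP) from homozygous testes, and RNF17 IP RNA from heterozygous testes. RNF17 is a Tudor domain protein of male germ cells. The labels do not give the allele, there is no wild type group, and the heterozygous controls carry 1 altered copy. Separate animals for the 2 replicates are not stated either, so every p-value rests on a spread that may be technical.

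The sperm tail is built around an axoneme of microtubules. Outer dense fibres run along the axoneme through the midpiece and principal piece and stiffen the tail, and the fibrous sheath surrounds them in the principal piece. A-kinase anchoring proteins (AKAPs) of the sheath hold protein kinase A, the cAMP-dependent kinase of sperm motility, and glycolytic enzymes are bound to it as well. These structures are assembled in spermatids, the haploid cells that elongate into sperm. Male mice that lack RNF17 are known to be sterile, with germ cells that stop at the round spermatid stage.

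Gene reads per library ranged from 5661754 to 50575649, and 15489 to 17723 entries had reads. Replicates correlated across 14180 genes, which are not independent, at r = 0.927 in homozygous testis, 0.877 in heterozygous testis, 0.962 in homozygous IP and 0.979 in heterozygous IP. Rnf17 itself was at 50.1 and 104.9 CPM (gene reads scaled to library size) in homozygous testis, against 517.6 and 532.4 CPM in heterozygous testis. In the IP it was at 208.6 and 379.8 CPM in homozygous mice and 1273 and 1173 CPM in heterozygous mice. The homozygous libraries were thus lower in both materials, and reads of the gene remained in each of them. Homozygous testis replicate 2 stood apart in depth, with 50575649 gene reads against 7260047 in replicate 1, and in Crisp1, an epididymal gene. Crisp1 was at 50.4 CPM in that library, against 0.101 CPM in homozygous testis replicate 1 and at most 0.0654 CPM in heterozygous testis. Without that library the median log2 fold change of the 8 tail genes in testis was -2.34, against -2.07 with all testis libraries. The median was -1.54 without homozygous testis replicate 1. It was -2.59 without heterozygous testis replicate 1 and -1.3 without heterozygous testis replicate 2. CPM values are on a common scale for all 8 libraries, and fold changes come from edgeR fits, with calls where the adjusted p (Benjamini-Hochberg) was under 0.05.

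In the testis, mRNAs of the 8 tail proteins were at lower fitted levels in homozygous mice, most of all Odf1 and Akap4, by 43.6 and 30.4 times. All 8 log2 fold changes were below 0, where 48.1% of the 14332 genes tested were. Their median was -2.07, against 0.04 for all genes. In 6 of the 8 genes both homozygous libraries lay below both heterozygous ones, as did those of 18.4% of all genes tested. edgeR's quasi-likelihood test called 0 of the 8, and 0% of all genes, in this comparison, with 5 of the 8 and 1453 of all genes at an unadjusted p under 0.05. DESeq2, run on the same reads, called Odf1, Odf3 and Akap4 lower, and called 4.87% of its genes lower. In RNA of a whole organ, fewer cells of a type and less RNA per cell cannot be told apart.

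**Figure D1:**
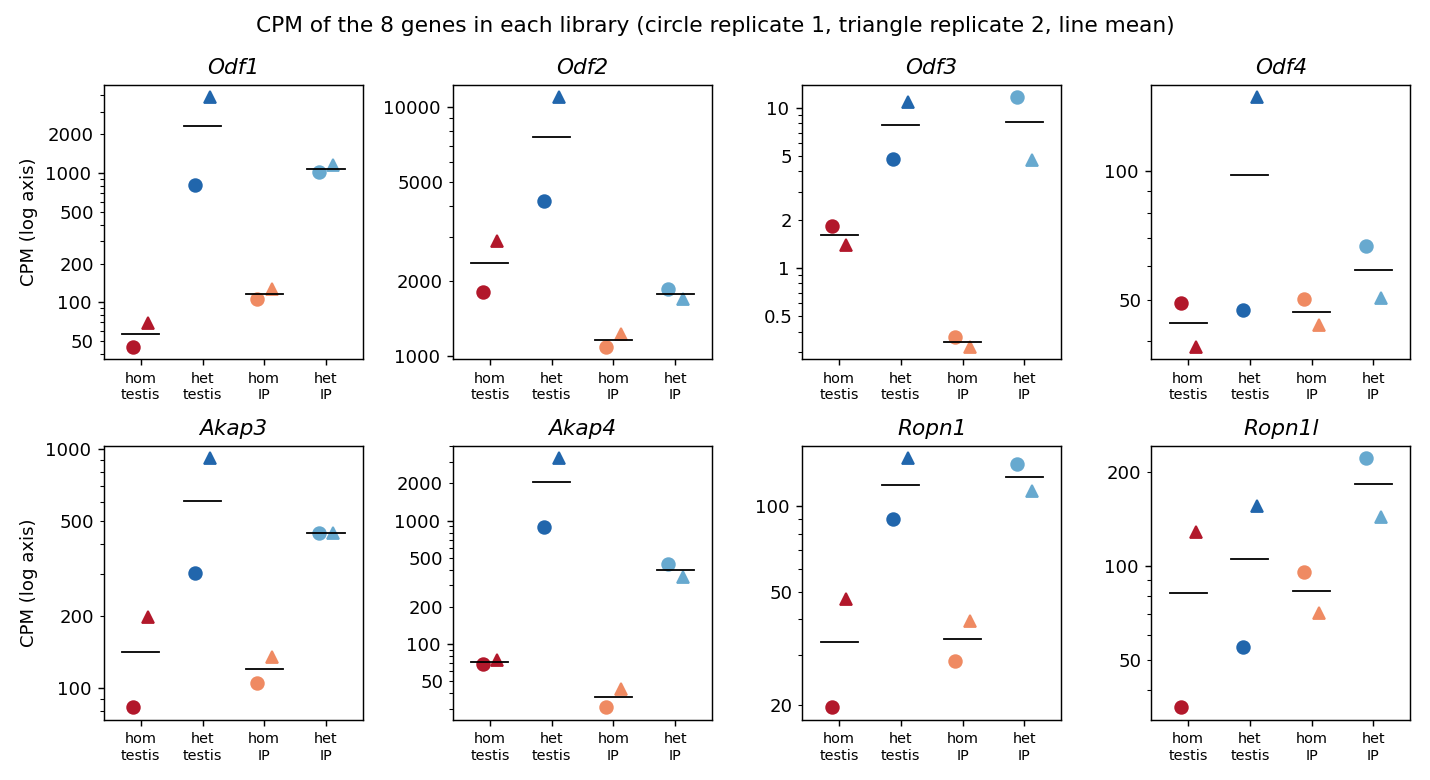
Levels of the 8 tail genes in CPM (log axis) in each library, homozygous left of heterozygous, testis then IP. Each point is 1 library, and both homozygous IP points lie below both heterozygous IP points in all 8 tail genes.

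Odf1 encodes a major structural protein of the outer dense fibres, related to small heat shock proteins. It was at 45.5 and 69.4 CPM in homozygous testis, against 813.5 and 3859 CPM in heterozygous testis. The groups did not overlap, and the heterozygous libraries differed from each other by 4.74 times. The log2 fold change was -5.45 (SE 1.02, adjusted p = 0.133 by edgeR and 1.06e-09 by DESeq2). edgeR called Odf1 when any 1 of the 4 libraries was left out, with log2 fold changes of -6.20 to -3.85; in each of those fits the lone library was assumed to vary like the other group. It was also called with no filter on low counts (adjusted p = 0.0116) and with all 8 libraries in the edgeR fit (adjusted p = 0.0112). edgeR did not call it with DESeq2-style scaling (adjusted p = 0.111) or with scaling by total reads (adjusted p = 0.127).

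Odf2 encodes a coiled-coil protein of the fibres that is also part of centrosomes and basal bodies of other cells. It was at 1819 and 2896 CPM in homozygous testis, against 4209 and 10920 CPM in heterozygous testis. It had the most reads of the 8 genes in every library. The libraries did not overlap between genotypes, and the log2 fold change was -1.78 (SE 0.82, adjusted p = 0.539 by edgeR), which missed the threshold. It lay between -2.35 without heterozygous testis replicate 1 and -0.87 without replicate 2. An exon of Odf2 overlaps the annotated gene Gm23865 on the other strand, and how the authors counted by strand is not given in the sources used here.

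Odf3, also called SHIPPO1, had few reads. It was at 1.82 and 1.39 CPM in homozygous testis, against 4.76 and 10.9 CPM in heterozygous testis. The groups did not overlap, with a log2 fold change of -2.39 (SE 0.72, adjusted p = 0.275 by edgeR and 0.0488 by DESeq2). edgeR called Odf3 without heterozygous testis replicate 1, at -2.91, and the value was -1.60 without replicate 2. Odf4, or OPPO1, was at 49.3 and 38.9 CPM in homozygous testis, against 47.5 and 149.0 CPM in heterozygous testis. Here the genotypes overlapped, and the log2 fold change was -1.24 (SE 0.69, adjusted p = 0.627 by edgeR). Without heterozygous testis replicate 2, it was -0.12.

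Akap4 encodes the main structural protein of the fibrous sheath, and Akap3 the sheath protein with which it assembles. Akap4 was at 69.1 and 74.1 CPM in homozygous testis, against 887.7 and 3203 CPM in heterozygous testis. The homozygous libraries were close to each other and far below both heterozygous ones. The log2 fold change of Akap4 was -4.93 (SE 0.90, adjusted p = 0.133 by edgeR and 5.55e-09 by DESeq2), and it lay between -5.61 and -3.65 when 1 library at a time was left out, with a call by edgeR each time. The edgeR adjusted p was 0.0121 with no filter and 0.0103 with all 8 libraries. With DESeq2-style scaling it was 0.111 and with scaling by total reads 0.127, and Akap4 was not called. Akap3 was at 83.1 and 199.0 CPM in homozygous testis, against 302.1 and 916.4 CPM in heterozygous testis. It did not overlap either, and its log2 fold change was -2.22 (SE 0.78, adjusted p = 0.370 by edgeR). Over fits without 1 library it ran from -2.86 without homozygous testis replicate 2 to -1.14 without heterozygous testis replicate 2, and edgeR called it, at -2.84, without heterozygous testis replicate 1.

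The upstream sequences of both sheath AKAP genes are shown because, of all pairs of the genes with a window, they shared the longest run of identical bases. In RefSeq (GRCm38.p6), 7 of the 8 genes, all but Odf1, matched 11 windows of 250 bases before to 50 after an annotated start. The run, in capitals, lies at -34 to -15 in Akap3 and -47 to -28 in Akap4, with the first transcribed base as 0. The Akap3 window is chr6:126852848-126853147 and the Akap4 window chrX:7067265-7067564, both on the plus strand.
Akap3: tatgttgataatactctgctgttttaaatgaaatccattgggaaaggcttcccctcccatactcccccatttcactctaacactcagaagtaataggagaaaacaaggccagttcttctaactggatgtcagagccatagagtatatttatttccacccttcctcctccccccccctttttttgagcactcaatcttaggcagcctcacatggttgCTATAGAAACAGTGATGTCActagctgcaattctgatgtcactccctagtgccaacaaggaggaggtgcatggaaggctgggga
Akap4: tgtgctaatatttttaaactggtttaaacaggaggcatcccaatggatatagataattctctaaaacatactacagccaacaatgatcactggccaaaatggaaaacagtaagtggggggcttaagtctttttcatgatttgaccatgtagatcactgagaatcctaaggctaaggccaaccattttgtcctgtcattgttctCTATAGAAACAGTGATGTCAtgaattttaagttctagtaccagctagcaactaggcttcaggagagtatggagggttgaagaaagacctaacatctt
The 20-base run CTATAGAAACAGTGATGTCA was held, on either strand, by 2 of 32851 windows in the genome (0.00609%), those of these genes. The next longest run shared by windows of different genes among the 7 had 14 bases. The last 8 bases of the run, TGATGTCA, were held by 3.62% of windows. The search for shared runs was made after the values were seen.

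Motifs were searched on both strands, and a match is a description only. The cAMP response element TGACGTCA, bound by CREM, an activator of spermatid genes, was in none of the 11 windows and in 1.79% of all. Its shorter form TGACG was in windows of Odf2 alone among the 7 genes searched, and in 20.8% of all windows. The TATA sequence TATAAA was in none of the 11 windows and in 13.6% of all, and ACAAT, a core bound by SOX proteins, was in 3 of the 11 and in 31.0% of all. The Odf2 window chr2:29889470-29889769, on the plus strand, is printed as a contrast with the AKAP windows, with TGACG in capitals.
Odf2: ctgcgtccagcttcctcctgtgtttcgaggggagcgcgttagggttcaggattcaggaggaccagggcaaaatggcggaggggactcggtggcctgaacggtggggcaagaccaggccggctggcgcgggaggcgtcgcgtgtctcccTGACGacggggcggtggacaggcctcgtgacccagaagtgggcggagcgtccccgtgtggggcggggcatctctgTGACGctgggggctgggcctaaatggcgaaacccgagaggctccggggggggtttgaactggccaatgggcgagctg
G and C made up 68.0% of this window, against 45.3% in the Akap3 window, 38.3% in the Akap4 window and a median of 52.7% over all windows.

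Ropn1 and Ropn1l encode ropporins, small sheath proteins that bind AKAPs through a domain like that of protein kinase A. Ropn1 was at 19.6 and 46.9 CPM in homozygous testis, against 90.0 and 147.2 CPM in heterozygous testis. Its libraries did not overlap between genotypes, and its log2 fold change was -1.93 (SE 0.64, adjusted p = 0.330 by edgeR). Over fits without 1 library it ran from -2.58 without homozygous testis replicate 2 to -1.38 without homozygous testis replicate 1, and it was called without heterozygous testis replicate 1, at -2.28. Ropn1l was at 35.2 and 128.5 CPM in homozygous testis, against 54.9 and 156.2 CPM in heterozygous testis. The genotypes overlapped, with a log2 fold change of -0.48 (SE 0.79, adjusted p = 0.890 by edgeR), and its sign turned to 0.53 without heterozygous testis replicate 2 and to 0.25 without homozygous testis replicate 1.

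The authors' deposited table of genotype differences in testis lists 734 genes, among them Odf1, Odf3 and Akap4. In the authors' deposited table, the log2 fold change of Odf1 was -3.59 (adjusted p = 9.63e-08), that of Akap4 -3.44 (adjusted p = 1.56e-07) and that of Odf3 -1.69 (adjusted p = 0.064). Those fold changes are smaller in size than the log2 ratios of the genotype means in the authors' deposited table, which were -5.46 for Odf1, -4.94 for Akap4 and -2.38 for Odf3.

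Levels between genes were compared per kilobase of annotated exon. In homozygous testis Odf2 led with 503 ± 162 CPM per kb (SD, n = 2), no other gene overlapped it, and Odf1 averaged 52.0 ± 15.3 CPM per kb. In heterozygous testis Odf1 averaged 2114 ± 1950, Odf2 1615 ± 1010 and Akap4 676 ± 541 CPM per kb, and neighbours in that order overlapped. Akap4 averaged 23.7 ± 1.17 CPM per kb in homozygous testis, where it overlapped Ropn1 above it. In homozygous IP it averaged 12.2 ± 2.93 CPM per kb and overlapped neither neighbour, and in heterozygous IP 131 ± 21.8 CPM per kb, where it overlapped Akap3. Odf3 was the lowest of the 8 in all 4 groups, at 0.225 to 5.30 CPM per kb.

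Within each library, ratios of reads between related genes need no scaling. For each read of Odf2 there were 0.025 and 0.024 reads of Odf1 in homozygous testis, against 0.193 and 0.353 in heterozygous testis. In the IP that ratio was 0.0973 and 0.104 in homozygous mice, against 0.545 and 0.678 in heterozygous mice. For each read of Akap3 there were 0.832 and 0.373 reads of Akap4 in homozygous testis, against 2.94 and 3.49 in heterozygous testis. Odf1 was thus lower relative to Odf2, and Akap4 relative to Akap3, in homozygous libraries of both materials, and the Akap4 to Akap3 ratio in the IP was 0.291 and 0.320 in homozygous mice, against 0.990 and 0.785 in heterozygous mice.

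Among RNAs recovered with the RNF17 antibody, 7 of the 8 genes fell in homozygous mice by edgeR's quasi-likelihood test, Odf3, Akap4 and Odf1 the most. Of the 13427 genes tested, 17.7% were called lower and 12.4% higher, and with scaling by total reads 23.4% lower and 6.20% higher, with the same count of 7. In all 8 genes both homozygous IP libraries lay below both heterozygous ones, where 33.8% of all genes did. The median log2 fold change of the 8 was -1.94, against -0.03 for all genes. This comparison used IP libraries only and was not corrected for levels in testis, where the median of the 8 was -2.07.

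Among the fibre genes, Odf1 was at 106.4 and 127.5 CPM in homozygous IP, against 1014 and 1149 CPM in heterozygous IP. The replicates were close, and Odf1 fell by 3.26 on the log2 scale (SE 0.22, adjusted p = 1.97e-06 by edgeR). Odf2 was at 1094 and 1226 CPM in homozygous IP, against 1861 and 1694 CPM in heterozygous IP. Its log2 fold change of -0.66 (SE 0.21, adjusted p = 0.032 by edgeR) was the smallest of those called. The call of Odf2 was lost with DESeq2-style scaling (adjusted p = 0.0556), and without homozygous IP replicate 1 (0.134), heterozygous IP replicate 1 (0.196) or heterozygous IP replicate 2 (0.0892).

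Odf3 had 2 and 2 reads in homozygous IP, against 123 and 30 reads in heterozygous IP. The summed levels differed by 26.1 times, lower in homozygous IP, with a 95% counting interval of 10.0 to 97.2 that covers counting error only. The fitted log2 fold change was -4.56 (SE 0.68, adjusted p = 4.82e-04 by edgeR). Odf4 was at 50.3 and 43.6 CPM in homozygous IP, against 67.03 and 50.5 CPM in heterozygous IP. It was the gene of the 8 that was not called, with a log2 fold change of -0.37 (SE 0.22, adjusted p = 0.230 by edgeR).

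Of the sheath genes, Akap4 was at 30.7 and 43.2 CPM in homozygous IP, against 442.7 and 349.7 CPM in heterozygous IP. It fell by 3.46 on the log2 scale (SE 0.24, adjusted p = 2.13e-06 by edgeR). Akap3 was at 105.5 and 135.0 CPM in homozygous IP, against 447.2 and 445.2 CPM in heterozygous IP. The heterozygous replicates of Akap3 were nearly equal, and it fell by 1.94 (SE 0.21, adjusted p = 4.14e-05 by edgeR). The ropporin gene Ropn1, at 28.6 and 39.5 CPM in homozygous IP and 140.6 and 113.0 CPM in heterozygous IP, fell by 1.94 (SE 0.23, adjusted p = 9.26e-05 by edgeR). Ropn1l was at 95.7 and 70.5 CPM in homozygous IP, against 222.3 and 144.1 CPM in heterozygous IP, and fell by 1.19 (SE 0.25, adjusted p = 0.00395 by edgeR). When all 8 libraries shared 1 estimate of the spread, 3 of the 8 genes were called lower in the IP, Odf1, Odf3 and Akap4, as were 3.12% of all genes.

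**Figure D2:**
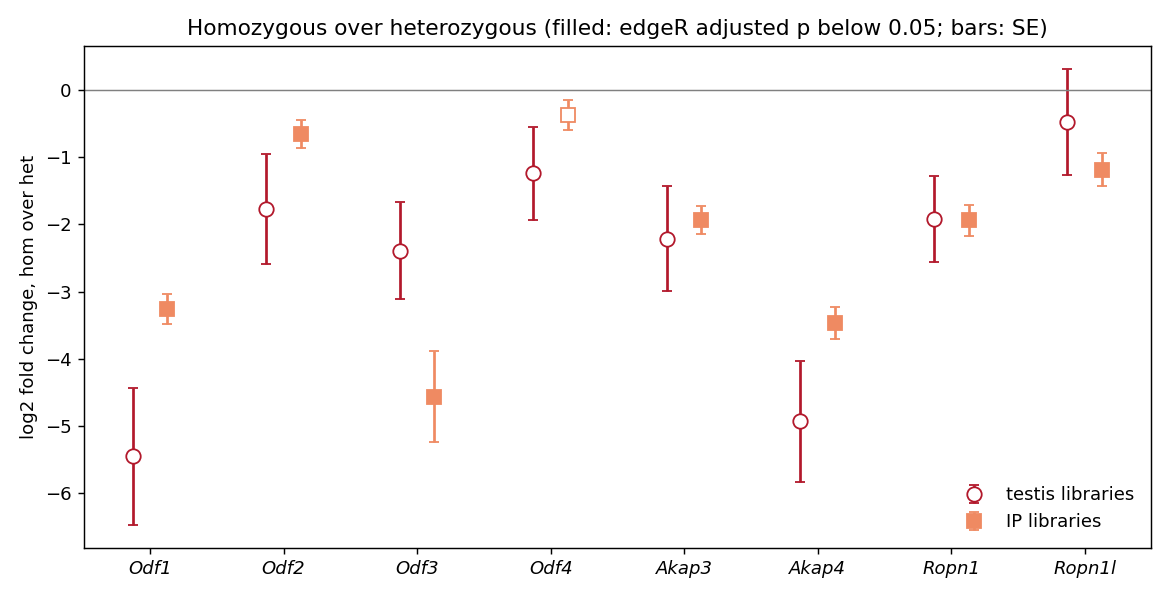
Fitted log2 fold change, homozygous over heterozygous, of each tail gene in testis and in RNF17 IP, with bars of 1 SE. All points lie below 0, and the testis bars are the longer ones, as with Odf1 at -5.45 (SE 1.02) in testis and -3.26 (SE 0.22) in IP.

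The share of each mRNA in the IP was then set against the testis libraries of the same genotype. These comparisons share libraries with those above. In homozygous mice, edgeR called 0 of the 7 genes tested, with 1.84% of all genes called higher and 1.45% called lower. With scaling by total reads 1.73% were called higher and 6.70% lower. Odf1 lay higher in both IP libraries than in both testis libraries, at a log2 fold change of 1.12 (SE 0.37, adjusted p = 0.111 by edgeR and 0.0594 by DESeq2), where 24.8% of genes did so. Odf2, at -0.93 (SE 0.51, adjusted p = 0.303 by edgeR), and Akap4, at -0.87 (SE 0.37, adjusted p = 0.193 by edgeR), lay lower in both, where 31.6% did. Odf3 was below the filter on low counts there, with 2 and 2 reads in the IP against 18 and 69 reads in testis. Without homozygous testis replicate 1, edgeR called 1 gene of the 8 higher and 2 lower, against 8.80% and 8.84% of all genes. Without replicate 2 it called 2 higher and 1 lower, against 16.6% and 16.0% of all genes. Odf1 was called higher and Akap4 lower in both of those fits.

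In heterozygous mice, edgeR called 0 of the 8 genes and 0% of all genes in the IP against testis. At an unadjusted edgeR p under 0.05 were 2460 of the 13562 genes tested, and 2 of the 8, which is near that share. Akap4 was at 442.7 and 349.7 CPM in heterozygous IP and at 887.7 and 3203 CPM in heterozygous testis. Its log2 fold change was -2.33 (SE 0.65, adjusted p = 0.225 by edgeR and 0.0108 by DESeq2). Odf2 had -2.05 (SE 0.51, adjusted p = 0.214 by edgeR and 0.0147 by DESeq2). These were the genes of the 8 whose IP libraries both lay below both testis libraries, as in 24.5% of all genes, and those that DESeq2 called, where it called 2.87% of genes lower. The other 6 had log2 fold changes between -1.07 in Odf1 and 0.83 in Ropn1l. Without heterozygous testis replicate 1 edgeR called 5 of the 8 lower and 0 higher, against 21.4% and 19.3% of all genes. Without replicate 2 it called 2 lower and 2 higher, against 25.5% and 26.9% of all genes, which is near that share. Odf2 and Akap4 were called lower in both of those fits.

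The difference between genotypes in the IP to testis ratio was tested as an interaction over all 8 libraries. edgeR called 0 of the 8 genes and 0% of the 14180 tested, with 1 of the 8 and 1373 of all at an unadjusted p under 0.05, and DESeq2 called 0 of the 7 to which it gave an adjusted p, all but Odf3, against 3.29% of its genes higher and 0.494% lower. The log2 ratio of Odf1 was higher in homozygous mice by 2.27 (SE 0.92, adjusted p = 0.476 by edgeR), with 3.01 (adjusted p = 0.0405) without heterozygous testis replicate 1 and 0.68 without replicate 2. That of Odf3 was lower, at -2.10 (SE 1.04, adjusted p = 0.575 by edgeR). A p above the threshold does not show that the ratios were equal.

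**Figure D3:**
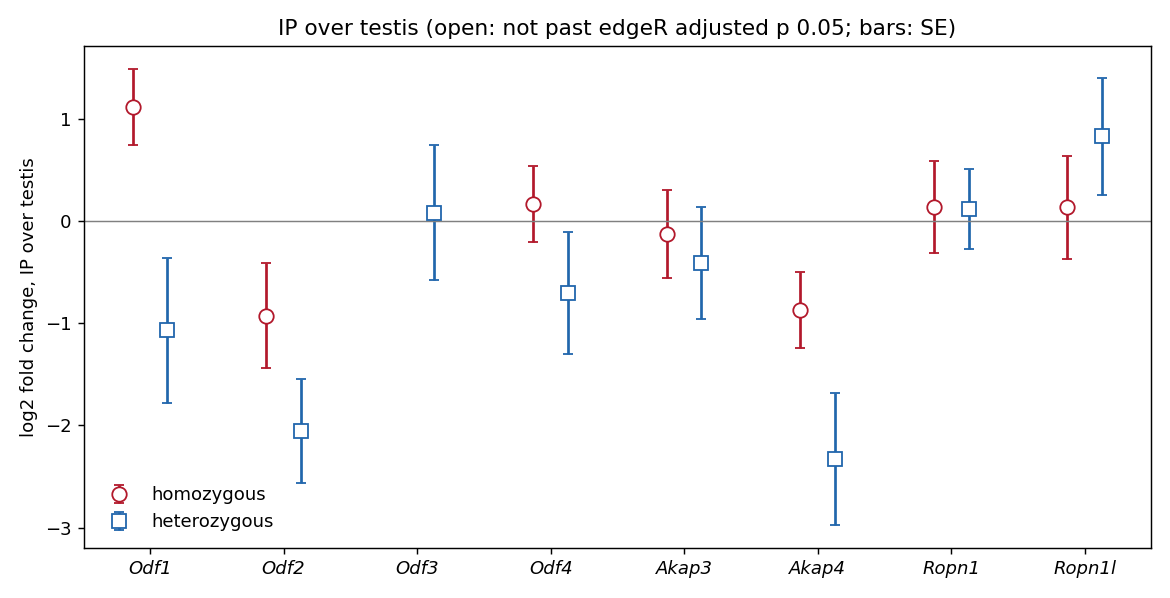
Fitted log2 ratio of RNF17 IP to testis of each tail gene in homozygous and heterozygous mice, with bars of 1 SE. Akap4 lies at -0.87 in homozygous and -2.33 in heterozygous mice, and Odf3 has no homozygous point because it was below the count filter.

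Other genes of the same structures were taken from a list of 21 symbols, 20 of them in the table. In the IP 12 of 19 tested fell in homozygous mice and 0 rose, by edgeR, with a median log2 fold change of -1.78. Of all genes, 17.7% were called lower and 12.4% higher there. Oaz3, a spermatid antizyme, averaged 9.67 ± 2.26 CPM in homozygous IP and 431.6 ± 75.8 CPM in heterozygous IP (SD, n = 2 each) and fell by 5.53 (SE 0.27, adjusted p = 4.48e-07 by edgeR). Gapdhs, the sperm glycolytic enzyme bound to the sheath, fell by 4.08, Spag4, which binds ODF1, by 2.69, and Tekt4, a tektin, by 2.63. Cabyr, a calcium-binding sheath protein, fell by 1.80, and Hk1, a hexokinase, by 1.78. In testis edgeR called 0 of 18, and 0% of all genes, and DESeq2 called 8 lower, against 4.87% of its genes. The log2 fold changes of 17 of 18 were below 0, as were 48.1% of all genes, and the median was -2.37. The genes of the list with the highest means there were Ldhc, the germ cell lactate dehydrogenase, at a log2 fold change of -0.20, Spa17, a sheath protein with the same type of domain as ropporins, at -2.81, and Hk1, at -2.54.

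Of 6 subunit genes of protein kinase A, edgeR called 1 lower in the IP, near the 17.7% of all genes called lower there. That gene was Prkar2a, which encodes the RII alpha regulatory subunit that AKAPs bind. It averaged 9.02 ± 1.35 CPM in homozygous IP and 130.4 ± 13.7 CPM in heterozygous IP (SD, n = 2 each), and fell by 3.90 (SE 0.24, adjusted p = 1.43e-06 by edgeR). The median of the 6 in the IP was -0.46. In testis Prkar2a had a log2 fold change of -3.66 (adjusted p = 0.133 by edgeR and 7.13e-06 by DESeq2), and the median of the 6 was 0.22.

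Markers of spermatid stages moved with the tail genes. The summed CPM of the 8 tail genes was 2123 and 3455 in homozygous testis, against 6409 and 19360 in heterozygous testis. That of 10 elongating spermatid markers, among them protamines and transition proteins, was 191.3 and 158.9 in homozygous testis, against 2708 and 15960 in heterozygous testis. In the IP it was 173.5 and 190.7 in homozygous mice, against 5548 and 5118 in heterozygous mice. There edgeR called 10 of 10 lower, with a median log2 fold change of -5.80, and called 17.7% of all genes lower. The sum of 10 round spermatid markers was 321.4 and 547.1 in homozygous testis and 857.9 and 3454 in heterozygous testis, and in the IP 494.2 and 451.3 in homozygous mice and 1172 and 1089 in heterozygous mice, with 8 of 10 called lower there. No marker of either list was at 0 in any library. Their part in the values of the tail genes was not tested.

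Sums of 10 pachytene spermatocyte markers overlapped between genotypes in testis, at 3545 and 9165 CPM in homozygous and 5737 and 9459 CPM in heterozygous mice. Those of 10 spermatogonia markers were higher in homozygous testis, at 278.9 and 245.8 CPM against 157.5 and 121.8 CPM in heterozygous testis, with Nanos2 or Nanos3 at 0 in some libraries. Sertoli cell markers summed to 843.1 and 1135 CPM in homozygous testis and 422.7 and 496.4 CPM in heterozygous testis, where Amh was at 0. Leydig cell markers summed to 548.8 and 777.0 CPM in homozygous testis and 228.6 and 333.0 CPM in heterozygous testis. Peritubular myoid markers summed to 233.6 and 137.6 CPM in homozygous testis and 107.0 and 82.9 CPM in heterozygous testis, and macrophage markers to 127.0 and 135.0 CPM in homozygous testis and 118.7 and 51.9 CPM in heterozygous testis. In testis edgeR called 0 markers of these lists, as of all genes. DESeq2, which called 4.87% of its genes lower there, called 1 of 10 pachytene markers lower. Among 7 Leydig markers tested it called Cyp19a1 lower, at a log2 fold change of -2.89 by edgeR. In the IP edgeR called 12.4% of all genes higher and 17.7% lower in homozygous mice. It called 3 of 10 pachytene markers higher and 2 lower, and 2 of 7 Leydig markers higher and 1 lower. Called higher were 3 of 6 peritubular myoid, 1 of 8 spermatogonia and 1 of 8 Sertoli markers, and called lower 1 of 6 macrophage markers. A single call in a list of 6 to 8 is near these shares. The part of these cells in the values of the tail genes was not tested. Epididymis markers summed to 56.3 CPM in homozygous testis replicate 2, mostly Crisp1, and to between 2.26 and 12.3 CPM in the other libraries, with 2 to 7 of 8 at 0.

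**Figure D4:**
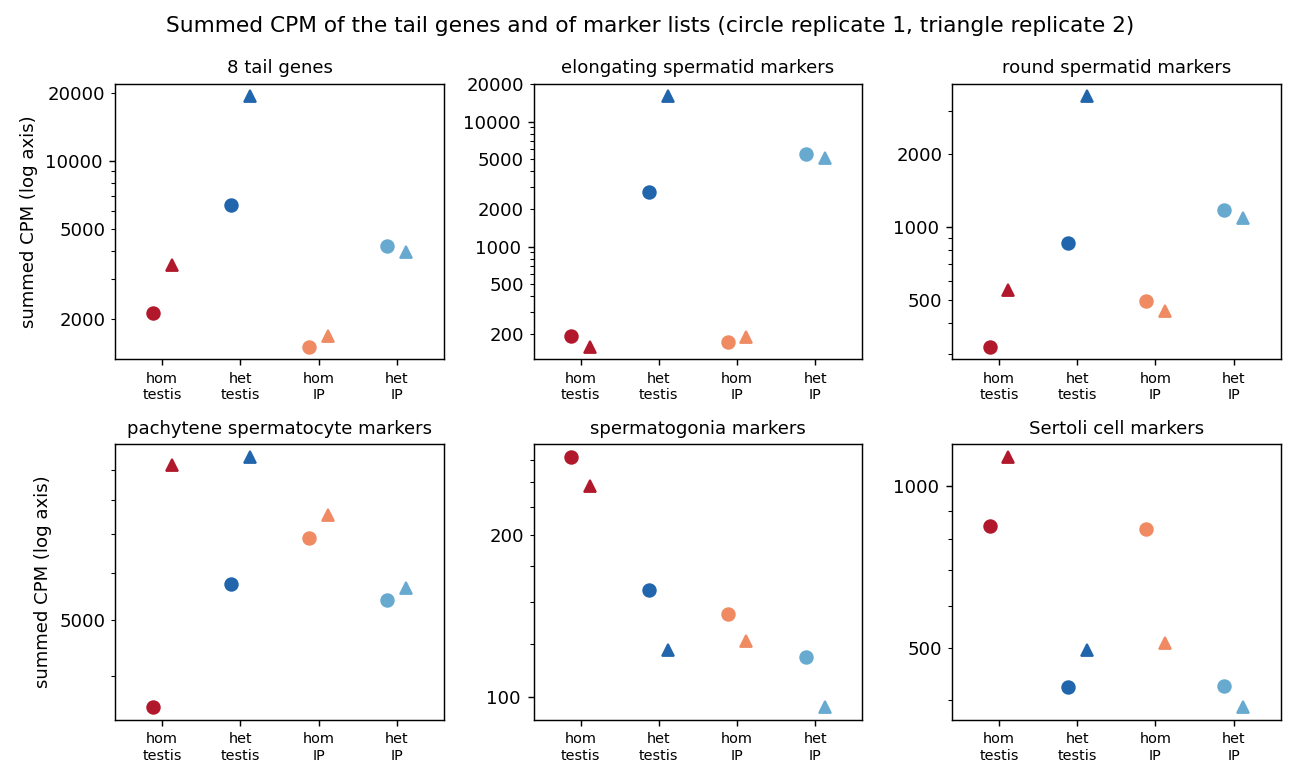
Summed CPM (log axes) of the 8 tail genes and of marker lists in each library, homozygous left of heterozygous, circles for replicate 1 and triangles for replicate 2. Elongating spermatid markers in homozygous libraries sit between 158.9 and 191.3 CPM, below every heterozygous library, where they start at 2708 CPM.

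Likeness between genes was measured as the root mean square difference of log2 CPM, each gene centred on its own mean, over 8 libraries. Among the 8, Akap3 and Ropn1 were closest, at 0.287, and Akap4 and Ropn1l farthest apart, at 2.04. Of 9056 genes searched, whose log2 CPM averaged 3 or more, Nt5c1b, at 0.186, and Dnaja4, at 0.193, were closest to the mean of the 8. Closest to Akap4 were Spz1, at 0.206, and Txndc2, at 0.237, a thioredoxin of the sperm sheath. Closest to Odf1 was Fam71f2, at 0.236, and to Odf2 Gm362, at 0.138, then Crisp2, at 0.264, a protein of the acrosome and fibres.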

How the data were processed

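Libraries were sequenced from testis RNA and RNF17 IP RNA. The authors deposited raw read counts per gene, in whole numbers. STAR, DESeq and build mm9 are named, per the submitters' processing notes; the sources used here give no versions, roles or strand rules. In the authors' deposited comparison of genotypes stand, per the file headers, normalised mean signal, log2 fold change, a standard error (a score) and p-values. Testis columns recur as lysate columns and were used once, and 0 columns were left unmapped.

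Counts were tested with edgeR 4.0.16 in R 4.3.3 (TMM scaling, filterByExpr, quasi-likelihood test, Benjamini-Hochberg adjustment over all genes), each comparison of 2 groups on its own 4 libraries and the interaction on all 8. DESeq2 1.42.0, other scalings, no filter, replicate blocks and leaving out libraries were alternatives. CPM used TMM library sizes over 8 libraries. Log2 fold changes are homozygous over heterozygous, or IP over testis. The SE given with them is the size of the edgeR log2 fold change divided by the square root of the quasi-likelihood F statistic. Exon lengths and promoters come from GRCm38, another build than the counting, so lengths are approximate. The 8 genes and all lists were chosen with earlier results of these data known. Named genes are the 8, Rnf17, and from each list other than cell markers the called genes with the smallest adjusted p or, with none called, the highest means.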

Additional observations from a re-analysis of the deposited data

How the results depend on the processing

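In testis the number of genes called was 0 with edgeR, 710 with DESeq2, 361 with no filter on low counts, 943 with the replicate number as a block, 655 with all 8 libraries in the fit, and 73 to 1273 without 1 library. For the 8 tail genes these were 0, then 3, 2, 5 and 2, and 2 to 5. The block called Odf1, Akap4, Odf3 (adjusted p = 0.0422), Akap3 (0.0268) and Ropn1 (0.0195). All tail genes called in these testis fits were called lower. Of all genes, DESeq2 called 4.87% lower in testis, and edgeR called 1.97% lower with no filter. With the block it called 5.85% lower and with all 8 libraries 4.4%. With DESeq2-style scaling or scaling by total reads, edgeR called 0 genes in testis. In the IP 4042 genes and 7 tail genes became 487 and 3 with all 8 libraries, and 2069 to 5414 and 6 to 7 without 1 library. IP against testis in heterozygous mice gave 0 genes, then 603 with DESeq2, 1 with no filter, 194 with the block, 3 with all 8 libraries and 11 to 7278 without 1 library, and for the tail genes 2 with DESeq2, 2 with the block and 0 to 5. In homozygous mice it gave 438 genes, then 1124 with total reads, 1333 with DESeq2, 1469 with no filter, 1010 with the block, 51 with all 8 libraries, 1787 with crossed numbers as the block (added after seeing the data, since deviations of same-numbered libraries correlated at r = -0.119) and 89 to 4556 without 1 library, and for the tail genes 1 with total reads, 0 with either block and 0 to 3 without 1 library. The interaction gave 0 genes, then 10 with total reads, 245 with DESeq2 and 0 to 259, and for the tail genes 0 to 1. In heterozygous IP against testis, DESeq2 called 2.87% of its genes lower and the block 0.487% of all genes. In homozygous mice, total reads gave 6.70% of all genes lower. In fits without 1 library the lone library was assumed to vary like the others, so no excess of tail genes is read from those counts. Same-numbered testis libraries deviated together (r = 0.587) and other pairs did not clearly (r = -0.177 to 0.105). With 2 libraries a group, the replicate numbers are thus not shown to pair samples. Total reads moved the median of all genes to 0.53 in testis, -0.30 in the IP, 0.32 and -0.46 in heterozygous and homozygous IP against testis, and -0.87 in the interaction. With total reads, the log2 fold change was 0.0124 for Ropn1l in testis, 0.00622 for Akap3 in heterozygous IP against testis, -0.31, -0.27 and -0.22 for Odf4, Ropn1 and Ropn1l in homozygous IP against testis, and -0.0308, -0.53 and -0.78 for Odf4, Akap3 and Ropn1 in the interaction, where Ropn1 was -0.066 with no filter. Odf3 in heterozygous IP against testis was -0.00393 with DESeq2-style scaling and -0.00286 with DESeq2. Signs also turned without 1 library, over ranges of -1.57 to 0.53 for Ropn1l in testis. In heterozygous IP against testis they ran from -1.86 to 0.39 for Odf1, -0.71 to 0.80 for Odf3, -1.36 to 0.29 for Odf4, -1.06 to 0.55 for Akap3 and -0.24 to 0.48 for Ropn1. In homozygous IP against testis they ran from -0.12 to 0.40 for Odf4, -0.60 to 0.49 for Akap3, -0.33 to 0.75 for Ropn1 and -0.50 to 1.19 for Ropn1l, and in the interaction from -0.17 to 1.58, -0.72 to 0.99, -0.50 to 0.71 and -1.64 to 0.45 for the same 4 genes. The cause was not tested. In the genotype comparison within the IP, 72 results for single genes kept direction and side of the threshold, 8 lost the call and 0 turned.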

Other observations

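Of 12 AKAP genes outside the fibrous sheath, edgeR called 3 lower and 3 higher in homozygous IP, where it called 17.7% of all genes lower and 12.4% higher, with a median log2 fold change of 0.22 against -0.03 for all genes. Akap1, an anchor on the outer mitochondrial membrane, averaged 38.3 ± 3.79 CPM in homozygous IP and 388.0 ± 1.57 CPM in heterozygous IP (SD, n = 2 each) and fell by 3.39 (SE 0.21, adjusted p = 1.43e-06 by edgeR). Akap14, an axonemal AKAP, averaged 172.8 ± 22.3 CPM in homozygous IP and 47.5 ± 9.17 CPM in heterozygous IP and rose by 1.82 (SE 0.22, adjusted p = 1.14e-04 by edgeR). Akap5 and Akap2 rose by 2.07 and 1.14, and Akap12 and Akap10 fell by 0.76 and 0.69.

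Of 8 genes of the annulus and the mitochondrial sheath of the midpiece, 4 were in the table. In homozygous IP 3 of them fell by edgeR, which called 17.7% of all genes lower there. Smcp, a protein of the mitochondrial capsule, averaged 74.2 ± 3.02 CPM in homozygous IP and 1128 ± 261 CPM in heterozygous IP (SD, n = 2 each) and fell by 3.98. Spata18 fell by 4.00 and Spata19 by 1.91. In testis edgeR called 0 of the 4 and DESeq2 called 3 lower, where it called 4.87% of its genes lower. Smcp is also among the elongating spermatid markers, as are Oaz3 and Gapdhs.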
